A study of Mus musculus with 2 samples.

Results

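Heat shock proteins and their J-domain cochaperones were examined in RNA-seq libraries of mouse spermatogonial progenitor cells (SPCs), the self-renewing cells at the base of the male germ line. The members were the genes whose symbols begin with Hspa, Hspb, Hspd, Hspe, Hsph or Hsp90, or with Dnaja, Dnajb or Dnajc and a number. This gave 74 of 23238 named genes, and 65 of the 74 reached 1 FPKM in 1 or both libraries and were measured here, among 13796 such genes in all. FPKM is a fragment level scaled by transcript length and library size, and here it was summed per gene from RefSeq transcripts and from models of 300 nt or more that had been assembled over its exons on the same strand. Of the members, 10 are known mainly from the testis (Hspa1l, Hspa2, Hspa4l, Hspb9, Dnajb3, Dnajb7, Dnajb8, Dnajb13, Dnajc5b and Dnajc5g), some with lower expression elsewhere, and are called testis-specific below. The other 64 are called general. Hspbap1, Hspbp1 and Hspb11 share the letters but encode a binding partner of HSPB1, a nucleotide exchange factor of HSP70 and a ciliary transport protein.

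There were 2 libraries of poly(A) RNA from SPCs of C57BL/6 testes at 8 days after birth, 1 wild-type and 1 Dnmt3l knockout. DNMT3L is a partner of the de novo DNA methyltransferases that has no catalytic activity of its own, and the series concerns its part in the quiescence of these cells. The knockout allele, the number of animals pooled and the way the cells were isolated are not given in the sources used here. Dnmt3l itself was at 1.67 FPKM [0.791 to 2.68] in wild-type SPCs and was listed at 0 in the knockout. Because each genotype is a single library, differences could not be checked against replicates, no test was made, and every value describes these libraries only. Where a pair of values is given, the wild-type library comes first and the knockout library second. Numbers in brackets are the lower and upper limits deposited with each estimate, and they say nothing of how animals vary. The files hold no read counts, so depth is unknown. The median coverage per FPKM, a measure of relative depth, was 3.13 and 3.45.

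HSP70 proteins bind exposed hydrophobic stretches of unfolded proteins in a cycle driven by ATP. J-domain proteins (classes DNAJA, DNAJB and DNAJC) bring them substrates and stimulate the ATPase, HSP110 proteins exchange the nucleotide, HSP90 takes over clients such as kinases and steroid receptors, small HSPs hold unfolded proteins without ATP, and HSP60 with HSP10 folds proteins in the mitochondrial matrix. Many of the general members are induced in stress by heat shock factor HSF1 through heat shock elements, which are inverted repeats of the block GAA, whereas several testis-specific members are switched on in meiotic and haploid germ cells.

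Promoter windows were searched for these blocks. RefSeq windows of 300 bases (250 before to 50 after the annotated start, GRCm38.p6) were matched to 60 of the 74 members by symbol, and the search covered both strands for a pair of blocks, GAANNTTC or TTCNNGAA. Each of these reads the same on both strands. A pair was in the window of 16 of the 60 members (26.7%), against 17% of the 27025 genes with a window. It was in 8 of the 10 members with a window that were listed as HSF1 targets (80%), and in 1 of the 9 testis-specific members with a window, Dnajc5g. A run of 3 blocks, GAANNTTCNNGAA or its reverse complement TTCNNGAANNTTC, overlaps 2 pairs, and this search was added after the pairs had been seen. It was in the windows of 4 members (6.67%), against 0.662% of genes: Dnajb6, Hspd1, Hspe1 and Hsph1. The windows of Hspd1 and Hspe1 overlap, so the same stretch is counted for both genes. Those of Hspa1a and Hspa1b are near-identical and are likewise counted for each gene among the pairs. A match is a description of the letters and not a binding site, and no match says only that these letters are not in this window.

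The sequences below were chosen as a divergent promoter with 4 blocks in a row, a start region with 3, the windows of stress-inducible genes with pairs, and a testis-specific gene with none. They are written 5′ to 3′ on the strand of the gene, and capitals mark bases in a pair or a run. The window of Hspe1, the HSP10 gene, is chr1:55087898-55088197 on the plus strand. It shares 285 of its bases with the window of Hspd1, the HSP60 gene, which is read the other way, and its run begins 89 bases before the Hspe1 start.
Hspe1: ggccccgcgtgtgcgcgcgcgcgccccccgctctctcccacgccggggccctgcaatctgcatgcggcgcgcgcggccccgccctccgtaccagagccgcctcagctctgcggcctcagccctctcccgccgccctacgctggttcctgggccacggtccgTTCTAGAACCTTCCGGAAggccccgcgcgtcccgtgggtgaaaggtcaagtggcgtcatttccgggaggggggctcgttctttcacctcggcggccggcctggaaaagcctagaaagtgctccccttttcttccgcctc
The window of Hsph1, an HSP110 gene, is chr5:149636266-149636565 on the minus strand.
Hsph1: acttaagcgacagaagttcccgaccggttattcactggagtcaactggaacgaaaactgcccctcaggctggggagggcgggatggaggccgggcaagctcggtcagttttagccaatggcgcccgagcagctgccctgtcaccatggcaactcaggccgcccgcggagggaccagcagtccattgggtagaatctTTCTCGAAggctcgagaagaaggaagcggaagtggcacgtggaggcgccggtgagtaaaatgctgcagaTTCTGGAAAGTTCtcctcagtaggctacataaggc
The window of Hspa1b, 1 of the strongly inducible HSP70 genes, is chr17:34959189-34959488 on the minus strand. That of its near-identical neighbour Hspa1a differs from it at 4 of 300 bases.
Hspa1b: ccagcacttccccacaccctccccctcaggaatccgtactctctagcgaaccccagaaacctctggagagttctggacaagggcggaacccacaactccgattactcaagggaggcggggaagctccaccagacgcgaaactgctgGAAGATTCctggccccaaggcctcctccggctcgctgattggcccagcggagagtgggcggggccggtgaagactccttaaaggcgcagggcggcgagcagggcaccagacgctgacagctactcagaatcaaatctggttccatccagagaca
The window of Hspb1, the HSP27 gene, is chr5:135887669-135887968 on the plus strand and holds a pair of blocks at 117 and at 97 bases before the start.
Hspb1: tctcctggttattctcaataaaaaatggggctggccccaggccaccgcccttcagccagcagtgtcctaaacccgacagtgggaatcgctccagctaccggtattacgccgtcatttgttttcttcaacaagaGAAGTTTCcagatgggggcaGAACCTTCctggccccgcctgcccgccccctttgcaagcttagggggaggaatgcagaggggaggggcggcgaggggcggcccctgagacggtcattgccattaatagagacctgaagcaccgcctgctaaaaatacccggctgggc
The window of Hspa2, the HSP70 gene of meiotic germ cells, is chr12:76404120-76404419 on the plus strand and holds neither.
Hspa2: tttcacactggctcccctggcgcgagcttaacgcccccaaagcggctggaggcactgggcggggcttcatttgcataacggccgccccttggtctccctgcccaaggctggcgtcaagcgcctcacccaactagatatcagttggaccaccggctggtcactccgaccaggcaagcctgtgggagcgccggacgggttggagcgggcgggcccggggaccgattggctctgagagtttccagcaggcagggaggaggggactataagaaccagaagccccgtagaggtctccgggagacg
The measured members with a run had a median log2 ratio of -0.05 (4 genes), those with a pair and no run 0.39 (11 genes), and those with neither 0.07 (38 genes). The members with a run ranged from -0.26 to 0.36, within the range of each other group. Those with a pair include Dnajb4, listed at 0 in the wild-type library. A link between blocks and ratio was not tested. Here and below the log2 ratio is log2((knockout FPKM + 1)/(wild-type FPKM + 1)).

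The leading members were abundant, and as a family the genes lay close to the typical gene in their ratio. Their FPKM summed to 4905 and 5709, which was 1.19% and 1.12% of the sum over all compared genes. The same 5 genes, Hspa8, Hsp90ab1, Hsp90aa1, Hspe1 and Dnaja1, led in both libraries and held 57.7% and 57.6% of the members' sum. At 100 FPKM or more there were 11 members and 13, and under 10 FPKM 25 and 20. Across members, levels in the 2 libraries correlated with Spearman's rho of 0.912 and Pearson's r of 0.913 over all 65, against 0.914 and 0.903 over all compared genes, and with 0.973 and 0.982 over the 63 members above 0 in both. Members share the libraries and are not independent replicates.

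**Figure D1:**
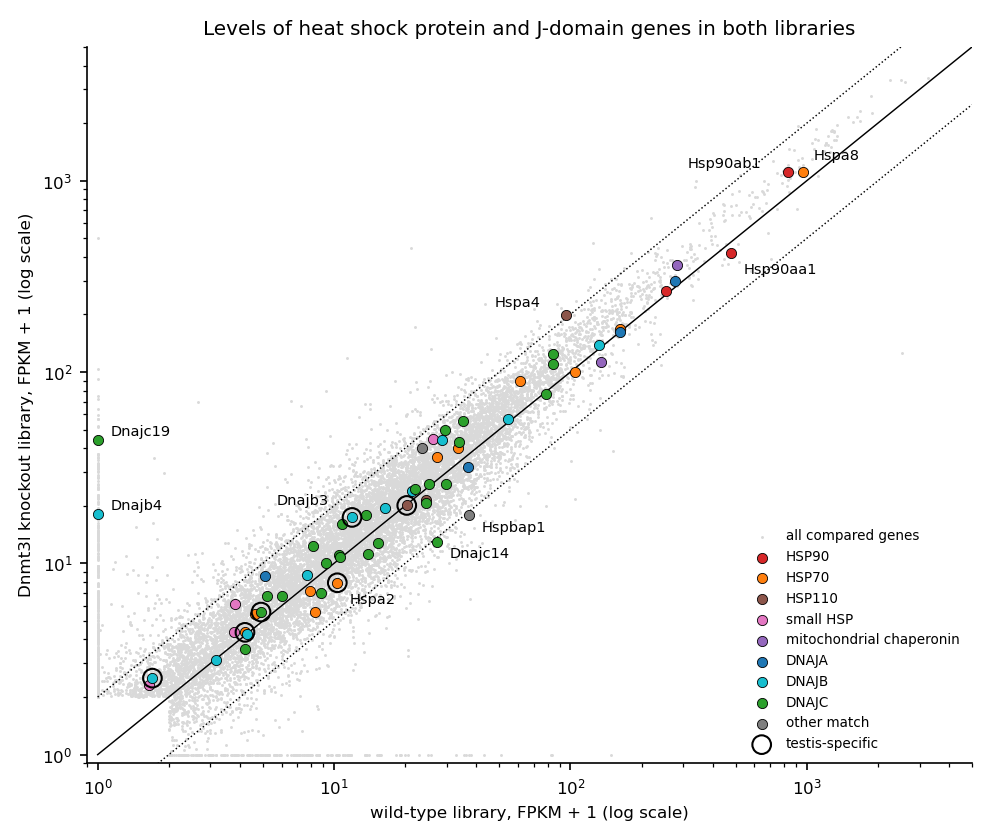
Level of each gene in the wild-type library (horizontal axis) and the Dnmt3l knockout library (vertical axis), both as FPKM + 1 on log axes. Grey points are all compared genes, coloured points are the 65 measured members by class, rings mark the 6 testis-specific ones, and the lines mark equality and a 2-fold difference. Of the members 60 lie between the 2-fold lines, and Dnajb4 and Dnajc19 lie on the left edge because they are listed at 0 in the wild-type library.

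The median log2 ratio of the 65 members was 0.15, against 0.22 over all compared genes. Ratios of all genes were shifted, since the median of the 12499 genes at 1 FPKM or more in both libraries was 0.21, and this is called the median gene. Relative to it the members' median was -0.05. Of the 65, 4 reached 1 FPKM in the knockout library alone (Dnajb4, Dnajb13, Dnajc19 and Hspb8) and 0 in the wild-type library alone, so these 4 could only be higher there. Of the members 44 had a ratio above 0 and 21 below. Above the median gene lay 28, and below it 37, where 51.2% of all genes lay above. On the log2 scale 46 of 65 members (70.8%) were within 0.5 of 0, against 60.8% of all genes. This band is not centred on the median gene. The members were also higher in level, with a median of 21.1 and 19.6 FPKM against 11.0 and 12.6 over all compared genes. The part of level in the spread of the ratios was not tested. A 2-fold higher level in the knockout library was seen for 3 members (7.68% of all genes were that much higher), and a 2-fold lower level for 2 (3.5% of all genes). In either direction this was 5 of 65 members, against 11.2% of all genes. Bounds that did not overlap, with the higher level in the knockout library, were found for 21 members (35.4% of all genes), and with the lower level there for 8 (16.2% of all genes).

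**Figure D2:**
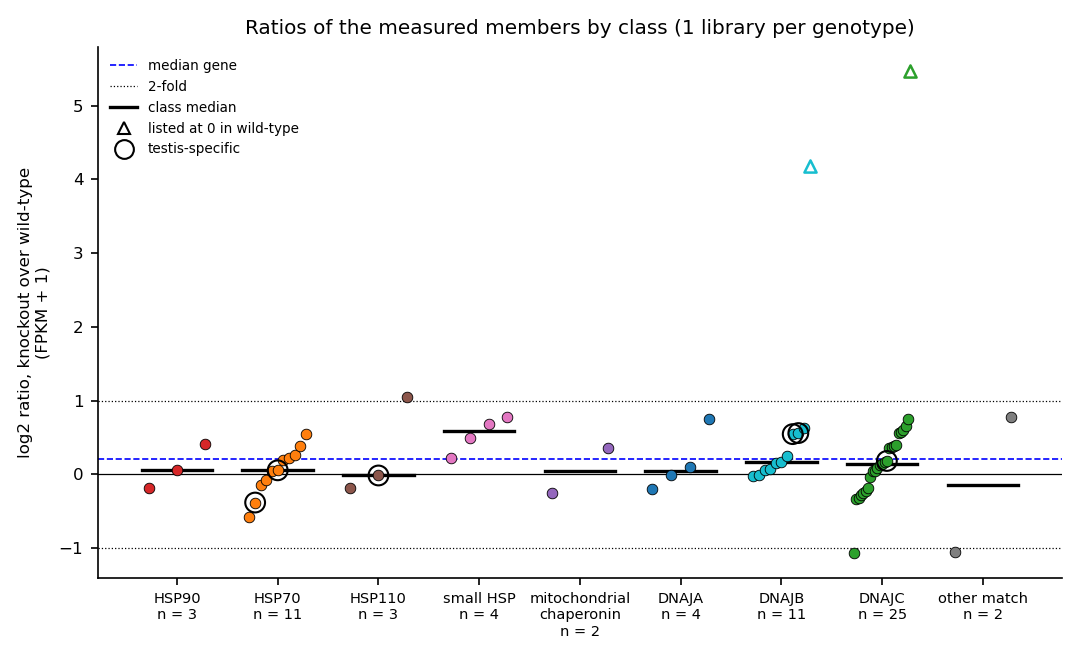
Log2 ratio of knockout over wild-type (FPKM + 1) for each measured member, by class. Points are genes, thick bars are class medians, rings mark testis-specific members, open triangles mark the 2 genes listed at 0 in the wild-type library, the dashed line is the median gene (0.21) and dotted lines are 2-fold. The 4 measured small HSP genes lie above the median gene, with Hspb3 and Hspb9 not shown because they did not reach 1 FPKM, and in the other classes points lie on both sides of it.

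The cytosolic HSP90 genes ranked next after Hspa8 among the members. Hsp90ab1, the constitutive form, at chr17:45567778-45573261 on the minus strand (mm10), was at 829.6 FPKM [828 to 855] and 1103 [1021 to 1065], a log2 ratio of 0.41. In the knockout library an assembled model of 7 exons and 1744 nt added 353 FPKM to the 750.1 of the RefSeq transcript, and the sum lies above its own bounds. By RefSeq transcripts alone the ratio was -0.15. Hsp90aa1, the inducible form, was at 478 [470.1 to 496] and 419 [417 to 433], a ratio of -0.19. Its wild-type value includes an assembled model of 70.9 FPKM. By the RefSeq transcript alone Hsp90aa1 was at 408 and 419, a ratio of 0.04. The transcript ratio of Hsp90ab1 to Hsp90aa1 was 1.73 and 2.63 with the models included, a difference that rests on them. Hsp90b1, which encodes the endoplasmic reticulum (ER) form GRP94, was at 253 [248 to 262] and 263 [260.1 to 273] with a ratio of 0.06, and its bounds overlapped.

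Among the 11 HSP70 genes, the constitutive HSC70 gene Hspa8 (chr9:40801273-40805199, plus strand) was the most abundant member, at 966 [964 to 995] and 1108 [1109 to 1140] FPKM. Its level stood at the 99.7th percentile of compared genes and the 99.6th. Its ratio of 0.20 was within 0.01 of the median gene. Hspa5, the ER chaperone BiP that is raised in the unfolded protein response, was at 161 [155 to 169] and 167 [155 to 166], a ratio of 0.05. Mortalin, the matrix HSP70 encoded by Hspa9, was at 104 [97.7 to 111] and 98.8 [92.8 to 100.1], a ratio of -0.07. These 3 housekeeping genes of the cytosol, ER and mitochondrion thus differed little between the libraries. The classical inducible genes Hspa1a and Hspa1b were far below Hspa8. Hspa1a was at 26.4 [24.6 to 28.2] and 34.8 [32.8 to 36.9], a ratio of 0.39, and Hspa1b at 32.5 [29.7 to 34.3] and 39.3 [36.1 to 40.6], a ratio of 0.27. Their mRNAs are nearly identical, so the division of reads between them is uncertain. Both lay slightly above the median gene with bounds apart.

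The remaining general HSP70 genes were lower. Hspa14, which encodes a ribosome-bound HSP70, was at 60.5 [56.9 to 64.3] and 88.4 [78.6 to 86.5], a ratio of 0.54 and the highest of the class. Hspa13, an HSP70 of microsomes, was at 7.29 [6.19 to 8.40] and 4.57 [4.05 to 5.13], and its ratio of -0.57 was the lowest of the class. Hspa12a was at 6.92 [5.97 to 7.86] and 6.16 [5.35 to 6.97], and Hspa12b at 3.64 [3.06 to 4.21] and 4.42 [3.77 to 5.07]. Both are distant relatives of the family, and their bounds overlapped. The class median was 0.05, with 7 of 11 ratios above 0 and 4 above the median gene.

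Testis-specific members were few and low at this age. Of the 10, 6 were measured, with a median level of 6.62 FPKM and 5.74, against 23.5 and 23.3 for the 59 measured general members. Their median log2 ratio was 0.12, from -0.38 to 0.56, against 0.15 for the general members, and 0 of the 6 were 2-fold different with the pseudocount of 1. By RefSeq transcripts alone, without models, Hspa4l was past 2-fold lower (-1.06). The highest ratio was that of Dnajb13, measured only through its knockout value, and with a pseudocount of 0.1 it was past 2-fold. Hspb9 and Dnajb7, lower in the knockout library, were not measured. Relative to the median gene these medians were -0.09 and -0.05. So the groups differed in level far more than in the median of the ratio. Of the 6 genes, 4 lay below the median gene and 2 above it.

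Hspa2 (chr12:76404176-76406936, plus strand), needed by meiotic spermatocytes and one of the best known testis chaperones, was at 9.32 FPKM [8.27 to 10.4] and 6.91 [5.73 to 8.12], a ratio of -0.38. Its bounds did not overlap, and the ratio of Hspa8 to Hspa2 was 104 and 160.3. Hspa1l, the HSP70 gene of spermatids, was at 3.20 [2.05 to 4.37] and 3.36 [2.48 to 4.24], a ratio of 0.05. It starts 547 nt from Hspa1a in the opposite direction. Hspa4l, an HSP110 gene of germ cells that is also stress-inducible, was the most abundant of the group at 19.3 [17.2 to 21.5] and 19.1 [16.6 to 21.5], a ratio of -0.02. By its RefSeq transcript alone Hspa4l was at 11.5 and 4.99, a ratio of -1.06, the rest being in models. Of these 3 genes only Hspa2 had bounds apart, with the lower level in the knockout library.

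Of the testis-specific J-domain genes, Dnajb3 was at 10.9 [9.07 to 12.8] and 16.4 [14.2 to 18.6], a ratio of 0.54 with bounds apart. Dnajb3 is a single-exon gene (chr1:88204732-88205748, minus strand) that lies inside introns of the Ugt1a cluster, which is transcribed from the other strand. The axonemal gene Dnajb13 was at 0.705 [0.320 to 1.15] and 1.51 [0.930 to 2.09], and Dnajc5g, a cysteine string protein gene, at 3.91 [2.58 to 5.24] and 4.56 [2.77 to 6.44], both with overlapping bounds. The 4 that did not reach 1 FPKM were Hspb9 (0.57 and 0), Dnajb7 (0.25 and 0), Dnajb8 (0 in both) and Dnajc5b (0 and 0.59, wild-type first). As a background for meiotic and haploid RNA, the 10 spermatocyte and spermatid markers summed to 133 and 113 FPKM. Of the 7 measured ones, 2 were 2-fold higher in the knockout library and 5 had ratios below 0, with a median of -0.07. Of the haploid genes, Tnp1 was at 3.27 and 8.36, Odf1 at 0.0667 and 1.69, Tnp2 at 1.00 and 0.905 and Prm1 at 0 and 0.252, and Acrv1 and Prm2 were listed at 0 in both. Their part in the levels of the testis-specific members was not tested, and in bulk RNA fewer cells of a type and less RNA per cell cannot be told apart.

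HSP110 proteins act as nucleotide exchange factors of HSP70. Hspa4 (chr11:53259814-53300479, minus strand) was at 94.4 FPKM [90.5 to 99.4] and 197 [172 to 193], and its ratio of 1.05 was the highest among members above 0 in both. Hsph1, the most strongly inducible of the class, was at 23.5 [21.9 to 25.1] and 20.5 [18.3 to 22.8], a ratio of -0.19 with overlapping bounds. By its RefSeq transcript alone, without the knockout model, the ratio of Hsph1 was -1.20. Together with Hspa4l at -0.02, the class thus held 1 gene above the median gene and 2 below it, and at the exon level the ratio of Hspa4 was 0.26. The ratio of Hspa4 to Hspa4l was 4.89 and 10.3, where the second value includes a knockout model of Hspa4 described below.

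Of the 7 small HSP genes 4 were measured, with ratios from 0.22 to 0.78 and a median of 0.58, or 0.29 by RefSeq transcripts alone. Hspb8 was measured only through its knockout value, while Hspb3 and Hspb9, at lower levels in that library, did not reach 1 FPKM. Hspb1, the only one that was abundant, was at 25.1 FPKM [20.8 to 29.5] and 43.9 [39.8 to 47.9], a ratio of 0.78 with bounds apart. Hspb6, known from smooth muscle, was at 2.82 [1.52 to 4.17] and 5.11 [2.72 to 7.46], a ratio of 0.68. Hspb2, a muscle gene, was at 2.78 [1.31 to 4.49] and 3.39 [1.24 to 5.50], and Hspb8, a partner of the cochaperone BAG3 in selective autophagy, at 0.642 [0.340 to 0.918] and 1.30 [0.866 to 1.73]. In these 3 genes the bounds overlapped. Cryab, a small HSP gene outside the naming rule whose start lies 404 nt from that of Hspb2, was at 5.10 and 8.91 FPKM, a ratio of 0.70. The small HSP genes not measured were Hspb3 (0.72 and 0.28), Hspb7 (0.40 and 0.93) and Hspb9 (0.57 and 0). Small HSPs are abundant in muscle and other somatic cells, and markers of such cells were higher too: the 6 peritubular muscle markers summed to 294 FPKM and 453, with 5 of 6 higher and 0 of them 2-fold. The 10 Sertoli markers summed to 493 and 1118. Their part in the small HSP values was not tested.

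The mitochondrial chaperonin genes share the divergent promoter shown above, with starts 216 nt apart, yet their ratios had opposite signs. Hspe1 (chr1:55088148-55091317, plus strand) was at 282 FPKM [270 to 297] and 362 [348 to 379], a ratio of 0.36. Hspd1 (chr1:55077834-55087932, minus strand) was at 134 [123 to 134] and 112 [103 to 111], a ratio of -0.26. In both genes the bounds were apart. The transcript ratio of HSP60 to HSP10 was thus 0.476 and 0.309. The genes differ in length: the longest RefSeq transcript is 768 nt for Hspe1 and 2332 nt for Hspd1, and ratios in these libraries went with length, as described below.

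Class DNAJA holds the closest relatives of bacterial DnaJ. Dnaja1, a farnesylated cytosolic cochaperone, was at 276 [236 to 258] and 296 [288 to 309] FPKM, a ratio of 0.10, and most of it was in assembled models (259 and 273 FPKM). Dnaja2 was at 161 [152 to 170] and 160.02 [153 to 169], a ratio of -0.01. Dnaja3, the mitochondrial form, was at 35.7 [32.4 to 39.1] and 31.0 [27.3 to 33.7], a ratio of -0.20. The 3 abundant genes of the class all lay below the median gene. Dnaja4, a less abundant relative, was at 4.12 [2.86 to 5.41] and 7.63 [5.93 to 9.34], with a ratio of 0.75 and bounds apart. By its RefSeq transcript alone Dnaja4 was at 2.26 and 2.03, a ratio of -0.10, the rest being in models. At the exon level, described below, which also counts the models, the ratio of Dnaja4 was 0.79. The class median was 0.05.

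Class DNAJB proteins deliver unfolded substrates, among them those that Dnajb6 keeps from aggregating. Dnajb6 led the class at 130.5 [115 to 126] and 138 [122 to 135] FPKM, a ratio of 0.08. The ER cochaperone Dnajb11 was at 53.6 [50.3 to 57.1] and 56.1 [50.1 to 56.5], a ratio of 0.06. Dnajb1, the main cytosolic HSP40 and a target of HSF1, was at 27.7 [24.1 to 28.8] and 43.1 [39.0 to 47.2], a ratio of 0.62 with bounds apart. The excess was in an assembled model of the knockout library at 15.0 FPKM, and by the RefSeq transcript alone the ratio of Dnajb1 was 0.02. At the exon level, which also counts that model, it was 0.53. Dnajb9, an ER protein that restrains the stress sensor IRE1, was at 20.4 [17.2 to 21.3] and 22.9 [19.5 to 26.2], and Dnajb12, an ER membrane protein, at 15.4 [12.7 to 18.2] and 18.5 [16.8 to 20.3]. Their ratios were 0.15 and 0.25, but by RefSeq transcripts alone -0.84 and 0.94, and at the exon level -0.05 and 0.29. Leaving out Dnajb4, the other 5 measured genes of the class had ratios from -0.02 to 0.56, with levels up to 10.9 and 16.4.

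Class DNAJC is the most varied, since its proteins share only the J domain. Dnajc7, a cochaperone that bridges HSP70 and HSP90, was at 83.1 [75.8 to 83.2] and 123 [113 to 122] FPKM, a ratio of 0.56. Dnajc8, a spliceosome-associated protein, was at 83.4 [71.0 to 79.9] and 109.7 [105 to 116], a ratio of 0.39. Dnajc2, which acts on the ribosome, was at 78.0 [70.05 to 77.9] and 75.6 [68.2 to 75.7], a ratio of -0.04. The first 2 of these had bounds apart and the third did not. The nuclear histone cochaperone Dnajc9 was at 34.3 [31.5 to 37.0] and 54.6 [51.1 to 58.1], a ratio of 0.66. Dnajc15, a short protein of the mitochondrial inner membrane, was at 28.4 [24.3 to 32.4] and 48.6 [43.6 to 53.7], a ratio of 0.75. Both were higher in the knockout library with bounds apart. Apart from Dnajc14 and Dnajc19, the other 18 measured genes had ratios from -0.33 to 0.60, 12 above 0 and 6 below, and levels from 3.22 to 32.7 in the wild-type and from 2.59 to 42.1 in the knockout library. The genes of the class that did not reach 1 FPKM were Dnajc5b, Dnajc6 (0.07 and 0.09) and Dnajc22 (0.19 and 0.09). Hspb11, the ciliary gene, was listed at 0 in both libraries.

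The 5 members that were 2-fold different are best seen through the transcripts behind them. Dnajb4 (chr3:152183955-152210299, minus strand), a cytosolic HSP40, had a listed level of 0 [0 to 0.103] against 17.1 FPKM [14.5 to 19.6]. Dnajc19 (chr3:34057758-34081326, minus strand), a protein of the mitochondrial import motor and of cardiolipin remodelling, likewise had 0 [0 to 0.466] against 43.2 [38.6 to 48.1]. A listed 0 can be a failed estimate, so no fold is given for either. Such zeros in the wild-type library were found for 2 of 65 members and 2.44% of all compared genes, and in the knockout library for 0 of 65 members and 1.33%. Dnajb4 starts 159 nt from Fubp1, which is read the other way and was at 87.1 and 82.5 FPKM. A Fubp1 model of the wild-type library overlapped 99 nt of Dnajb4 exons, and no such model was in the knockout library. Fxr1 overlaps 91 nt of Dnajc19 exons in the RefSeq annotation. No strand-marking step is in the labels' protocol, so reads of overlapping genes may not be separable.

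Where the same genes are measured over their RefSeq exons, counting every model on either strand, fewer members stood apart. This exon level adds the FPKM of all models that cover a base and averages over the exon bases. It uses the same estimates, so a transcript listed at 0 adds nothing to it, and for Dnajb4 (2.03 and 14.6) and Dnajc19 (7.57 and 33.4) the wild-type values hold no level of the genes' own listed transcripts, and Fubp1 and Fxr1 overlap their exons as given above. It is therefore no second measurement of these genes. For Hspa4 the exon level was 92.5 and 111, a ratio of 0.26. The larger summed ratio came from a knockout model of 7 exons and 965 nt with 105 FPKM that lies within the RefSeq transcript, which itself was at 73.7 and 91.5 FPKM.

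Both genes that were 2-fold lower had their excess in wild-type models that end short of the RefSeq transcript. Dnajc14 (chr10:128805676-128819446, plus strand), an ER protein that binds the dopamine D1 receptor, was at 26.3 FPKM [24.4 to 28.4] and 12.0 [11.1 to 12.9], a ratio of -1.07. All of the wild-type value was in a model of 2333 nt, the RefSeq transcript of 4229 nt being listed at 0, and all of the knockout value was in the RefSeq transcript. At the exon level it was at 24.4 and 22.3, a ratio of -0.13. In the knockout library this is above the 12.0 of its own transcript, so the exon level also holds other transcripts. The RefSeq exons of Dnajc14 overlap those of Ormdl2 on the other strand over 1559 nt. Its exon level is therefore not a value of Dnajc14 alone. Hspbap1 (chr16:35770386-35828462, plus strand) was at 36.2 [30.5 to 41.9] and 16.9 [15.8 to 17.9], a ratio of -1.06, with wild-type models of 1114 and 1027 nt beside a RefSeq transcript of 4606 nt. At the exon level it was at 14.9 and 16.9, a ratio of 0.17 with the other sign.

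**Figure D3:**
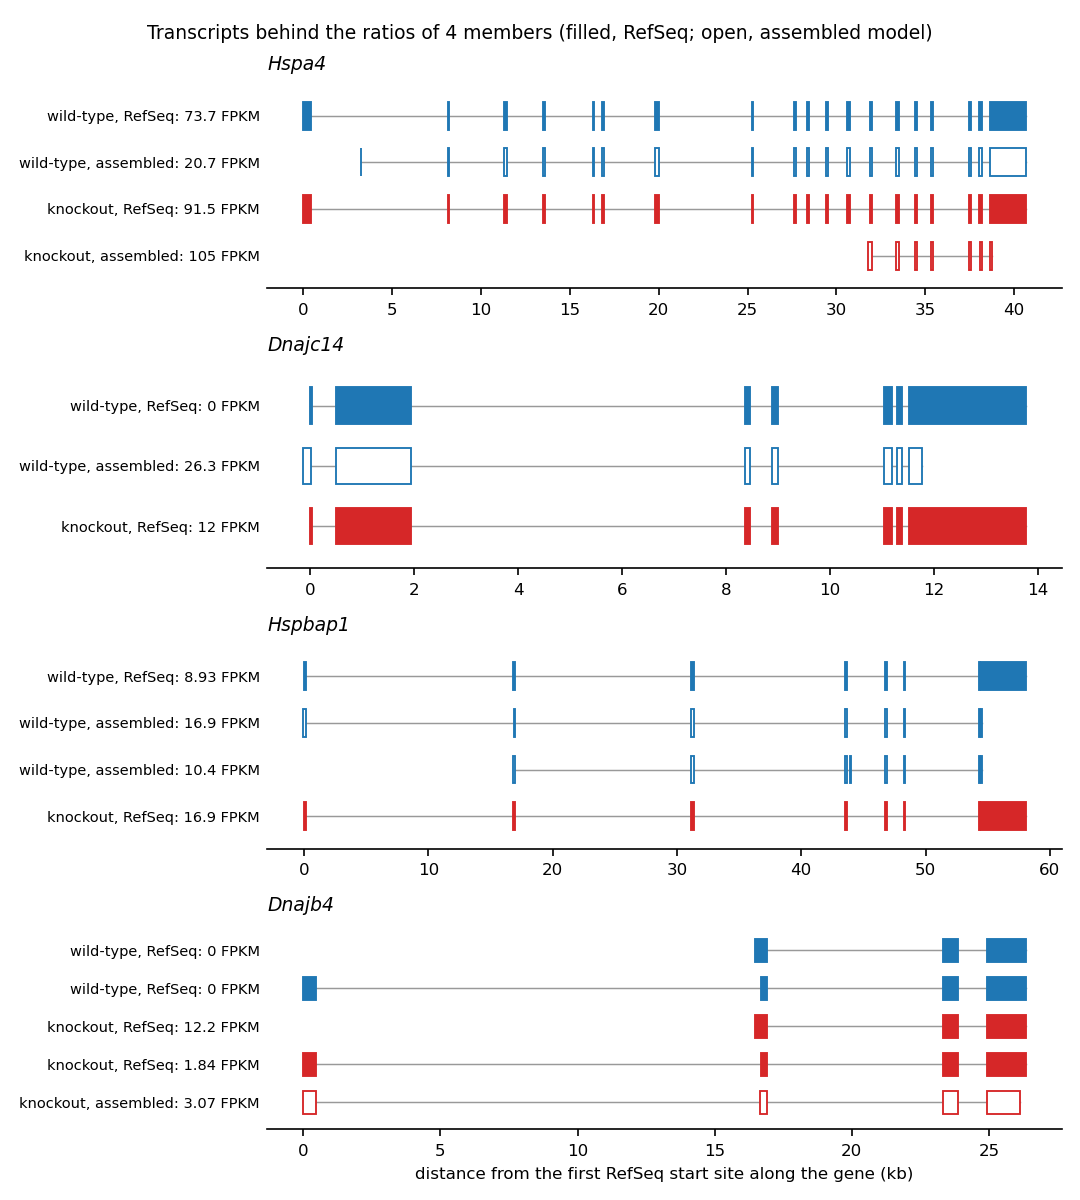
Transcripts of Hspa4, Dnajc14, Hspbap1 and Dnajb4 in both libraries, drawn from the first RefSeq start along the gene in kb, with boxes for exons and the FPKM of each at the left. Filled boxes are RefSeq transcripts and open boxes are assembled models, blue for the wild-type and red for the knockout library. The 105 FPKM model of Hspa4 in the knockout library covers 7 of its exons, and the wild-type models of Dnajc14 and Hspbap1 stop before the end of the RefSeq transcript.

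By the exon level 2 of 65 members were 2-fold different, against 8.26% of all genes. These were Dnajb4 and Dnajc19, whose own wild-type transcripts are listed at 0 in every summary, so their place past 2-fold was fixed by those zeros. By RefSeq transcripts alone 13 were, against 23% of all genes. That summary leaves out the models, which were assembled in each library on its own. Models were part of the value in 25 members of the wild-type and 23 of the knockout library, and held most of it in 10 and 15. For 5 members and 8 the summed FPKM lay outside its own summed bounds, among them Hsp90ab1, Hspa4 and Hspd1, so bounds apart do not by themselves show a difference.

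**Figure D4:**
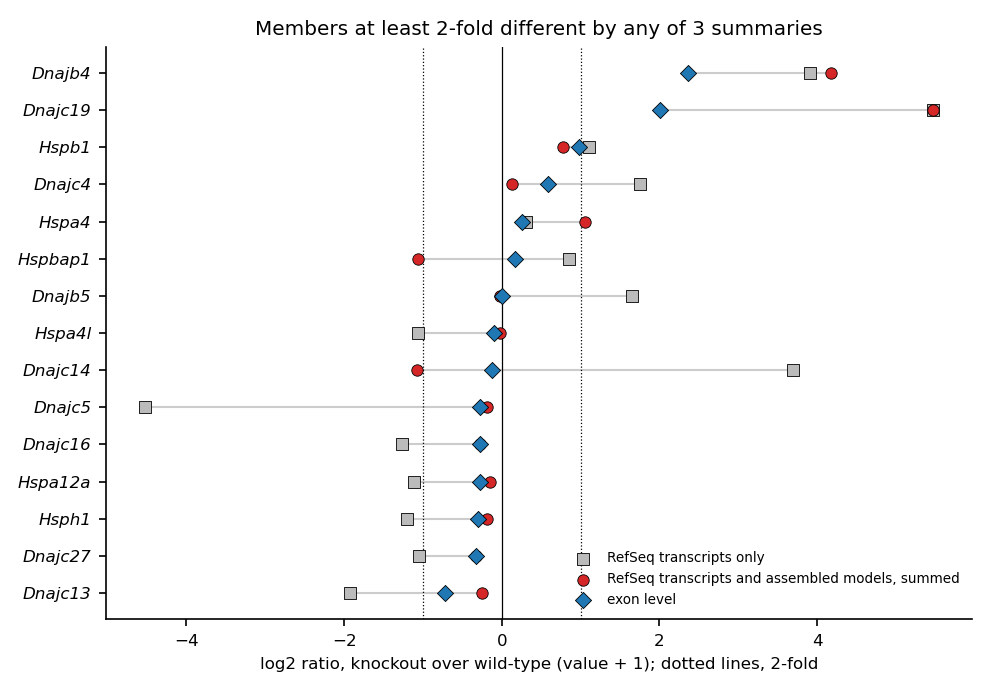
Log2 ratio of knockout over wild-type for every member that was at least 2-fold different (dotted lines) by at least 1 of 3 summaries: RefSeq transcripts alone (squares), RefSeq transcripts and assembled models summed (circles) and the exon level (diamonds). Dnajb4 and Dnajc19 lie past 2-fold by all 3, which share the same wild-type zeros, and Dnajc14 and Hspbap1 lie on both sides of 0.

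Ratios went with transcript length. Across the 65 members the longest RefSeq transcript and the log2 ratio had a Spearman rho of -0.60, and across all compared genes of -0.40. The 6 members under 1000 nt had a median ratio of 0.56 (all such genes 0.54), the 17 of 1000 to 2000 nt 0.49 (0.41), the 30 of 2000 to 4000 nt 0.05 (0.20), and the 12 of 4000 nt or more -0.20 (-0.09). The members thus followed the order of all genes. Hspb1, Hspb2, Hspe1, Dnajc15 and Dnajc19 are short, and Hspa13, Dnajc13 (23.5 [22.6 to 24.7] and 19.6 [17.8 to 21.5], a ratio of -0.25) and Dnajc1 (13.0 [11.7 to 14.3] and 10.2 [9.19 to 11.2], a ratio of -0.32) are long. By its RefSeq transcript alone the ratio of Dnajc13 was -1.93, and at the exon level -0.71. Not every long member had a ratio below 0, since Hspa4 was at 1.05 and Dnaja1 at 0.10. The part of length in any single ratio was not tested.

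**Figure D5:**
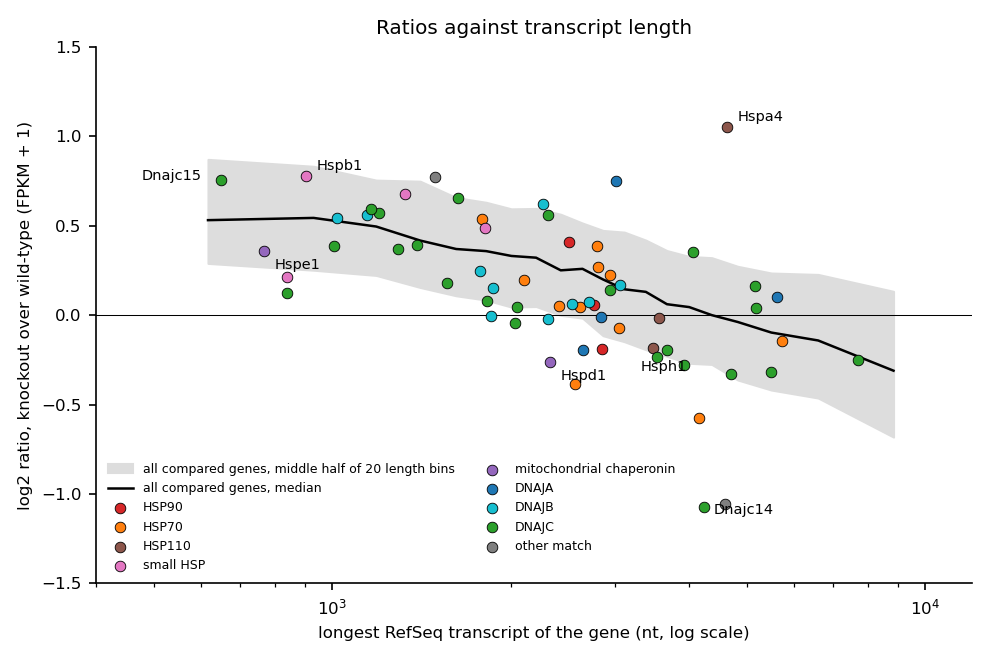
Log2 ratio of knockout over wild-type (FPKM + 1) against the longest RefSeq transcript of the gene in nt on a log axis. Points are the 63 measured members above 0 in both libraries, coloured by class, the line is the median of all compared genes in 20 length bins and the grey band their middle 50%. Most members fall from left to right with the line, with exceptions such as Hspa4 above it. Dnajb4 and Dnajc19 are left out.

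Seen by compartment, the 13 ER genes (12 members and Sec63, 20.8 and 22.2 FPKM) had a median ratio of 0.06, from -0.57 to 0.36, with 11 of 13 below the median gene. The 8 mitochondrial genes had a median of 0.25, with Dnajc19 as the single one 2-fold different, and Hscb, the iron-sulphur cluster cochaperone, at 33.5 and 55.6 FPKM.

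Other genes of the chaperone network were described from lists in which members and other genes stand side by side. Of the 18 genes listed as stress-inducible HSF1 targets, 0 were 2-fold different, and their median ratio was 0.31 with 11 above and 7 below the median gene. The 6 that are no members had a median of 0.59. Of these Hmox1, which encodes a haem-degrading enzyme, was at 91.1 and 178 FPKM (0.96), Bag3, a cochaperone of HSPB8, at 7.10 and 12.7 (0.76), and the polyubiquitin gene Ubb at 882 and 1442 (0.71). Ratios in this list were not uniform, since 5 of the 18 lay below 0, among them the members Hspd1 and Hsph1 and the HSP90 partner gene Chordc1 (18.6 and 16.0 FPKM, a ratio of -0.20). The 12 immediate early genes, which respond to handling among other stimuli, summed to 427 FPKM and 714, 11 of 12 lay above the median gene and 4 were 2-fold higher. Their part in the values of stress-inducible members was not tested.

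The measured heat shock factor genes were all within 2-fold. Hsf1 was at 32.3 and 36.1 FPKM, a ratio of 0.15, and Hsf2, expressed in testis germ cells, at 25.9 and 29.05, a ratio of 0.16. The factor inhibitor Hsbp1 was at 69.2 and 96.4, a ratio of 0.47. Hsf1 and Hsf2 both lay slightly below the median gene. The list of 7 also holds Hsbp1 and Hsf2bp, which are no heat shock factors. Over its 5 measured genes the median was 0.41, the ratio of Hsf2bp, and 0 were 2-fold different.

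Among nucleotide exchange factors and cochaperones of HSP70, 0 of 15 genes were 2-fold different and the median was 0.27. The highest were Sil1, the exchange factor of BiP, at 12.1 and 21.7 FPKM (0.79), and the member Hspbp1 at 22.5 [20.3 to 24.8] and 39.3 [36.3 to 42.3] (0.77, bounds apart). Sgtb at 6.75 and 4.20 (-0.58) and Bag4 at 14.0 and 9.27 (-0.54) were the lowest. The list of 19 HSP90 cochaperone genes, which also holds the HSP90 family gene Trap1, had a median of 0.33, with 14 above the median gene. Of the 19, 1 was 2-fold higher and 0 were 2-fold lower. Among them Nudc, which acts in nuclear migration and stabilises HSP90 clients, was at 246 and 374 FPKM (0.60), and Sugt1, which links HSP90 to ubiquitin ligases, at 19.5 and 29.3 (0.57).

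The CCT chaperonin, which folds actin and tubulin, had a median of 0.03 over 9 subunit genes. Its testis-specific subunit gene Cct6b was listed at 0 in the wild-type and was at 1.13 FPKM in the knockout library, while its general counterpart Cct6a was at 219 and 157 (-0.48). In the list of ER folding and unfolded protein response genes, 0 of 18 measured genes were 2-fold different and the median was 0.29. Ern1, which encodes the stress sensor IRE1, was the lowest at 7.48 and 3.64 (-0.87), Manf was the highest at 29.4 and 49.4 (0.73), and the stress-induced factor gene Ddit3 was listed at 0 in both libraries.

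The cells were checked against marker lists of the germ line and of the testis soma. Markers of undifferentiated spermatogonia, a list with the wider germ cell genes Dazl and Ddx4, summed to 652 FPKM and 593 over 10 genes. Of these, 7 had ratios above 0 (Gfra1 at 27.4 and 48.5) and 3 below (Dazl at 223 and 137). Relative to the median gene, 5 lay above and 5 below. Markers of differentiating spermatogonia summed to 312 and 243 over 6 genes, with Kit at 21.7 and 5.93. Somatic lists were present in both libraries and higher in the knockout library: 5 of 10 Sertoli genes were 2-fold higher, 4 of 9 macrophage genes (418 and 816 in sum, Cd68 at 24.6 and 0), 2 of 5 measured Leydig genes (60.5 and 136, Star listed at 0 in both) and 3 of 6 endothelial genes (52.2 and 106). Hsp and J-domain genes are expressed in all these cell types, and the part of cell makeup in the members' ratios was not tested.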

How the data were processed

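Poly(A) RNA of postnatal SPCs was fragmented, copied with random primers and sequenced as read pairs, per the labels' protocols, with 1 library per genotype, grouped by the genotype in the labels. The submitters' processing notes name CASAVA 1.9, TopHat2 2.0.8, Cufflinks 2.1.1 and mm10, with no settings. In each deposited file are 30073 RefSeq transcripts, those at 0 included, and models assembled from that library (20579 wild-type, 20415 knockout), each with an FPKM, its bounds and a coverage. FPKM values were taken as deposited by the authors, and the deposited score was left unused.

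Of 30079 identifiers, 29451 were named by accession from the RefSeq table (GRCm38.p6), 177 by accession and 303 by exon overlap from GENCODE M21 tables, 101, 34 and 10 by current, older and other names in the files, and 3 stayed unnamed. Models of 300 nt or more were added to the gene with which they shared most same-strand exon bases, those without a strand only at a share of 0.5 or more. Genes at 1 FPKM or more in at least 1 library were compared with a pseudocount of 1. No test was possible. The members and all lists, and the promoter search, were chosen with earlier results of these data known. Named genes followed a rule: all testis-specific members, all measured members of the HSP90, HSP70, HSP110, small HSP and chaperonin classes, J-domain members 2-fold different or among the 5 most abundant of their class, and up to 4 genes of each other list with the largest ratios at 5 FPKM or more. Some genes that the rule covers are not reported here. Exceptions chosen after their values were seen were Dnajc1, Dnajc13, Cryab, Cct6b, Hsf1, Hsf2, Hscb, Sec63, Chordc1, Ddit3, Gfra1, Dazl, the haploid markers, Star, and the neighbours Fubp1, Fxr1, Ormdl2, Psmc2, Cdnf, Tbccd1 and Zfyve19.

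Alternatives were pseudocounts of 0.1 and 5, no filter or one of 10 FPKM, centring, upper-quartile scaling, RefSeq transcripts only, the exon level, the coverage attribute, no length limit on models, a fold of 1.5, genes above 0 in both libraries, and bounds apart. The ratio was tested on simulated data. Python 3.11.15, numpy 2.4.6, pandas 2.3.3, scipy 1.17.1 and matplotlib 3.10.9 were used.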

Additional observations from a re-analysis of the deposited data

How the results depend on the processing

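No paired analysis was possible because each genotype has 1 library, and no library could be left out. Members 2-fold higher in the knockout library numbered 3, and 1 among members above 0 in both libraries, 2 at the exon level, 4 with a pseudocount of 0.1 (Dnajb13 joined), 6 by RefSeq transcripts only and 11 at 1.5-fold. Members 2-fold lower numbered 2, and 0 with a pseudocount of 5, at the exon level and by the coverage attribute, and 7 by RefSeq transcripts only. Among members past 0.5 on the log2 scale, Dnajc14 and Dnaja4 changed sign by RefSeq transcripts only (3.70 and -0.10). In the same group Hspbap1 changed sign by RefSeq transcripts only (0.85) and at the exon level (0.17). The RefSeq-only values leave out every assembled model, which holds all of the wild-type value of Dnajc14. The causes of the other differences were not tested. The median ratio of the members was negative with centring (-0.05) and upper-quartile scaling (-0.01), where that of the testis-specific members was -0.09 and -0.02, and both medians were above 0 in the other settings. Of 19 members past 0.5 on the log2 scale, 16 had the same sign by RefSeq transcripts only, 18 at the exon level, and 19 with centring, upper-quartile scaling, the coverage attribute, no length limit and pseudocounts of 0.1 and 5. Over all 65 members, the other sign was found for 12 by RefSeq transcripts only and 3 at the exon level. It was found for 16 with centring, 12 with upper-quartile scaling and 6 by the coverage attribute. Depth is unknown, so no interval from counts can be given for the members near 1 FPKM.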

Other observations

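Several members have more than 1 RefSeq transcript, and the split between them differed between the libraries in some and not in others. Percentages are of the summed FPKM of the gene, wild-type library first, and no interval can be given without counts. For Dnaja3, the mitochondrial DNAJA gene, the transcript of 11 exons held 63.9% and 75.3%, and that of 12 exons 36.1% and 24.7%. For Dnajc1, an ER membrane cochaperone, the transcript of 5495 nt held 62.0% and 76.9%. The BiP gene Hspa5 was assigned to its transcript of 9 exons at 89.5% and 100%, and Dnajb11 to its transcript of 10 exons at 100% in both. Dnajb6 was assigned to its transcript of 1645 nt at 100% and 92.1%, and the longest one, of 2708 nt, held 7.87% in the knockout library and 0 in the wild-type one.

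Besides the chaperonin pair, other members start close to a gene read the other way. Dnajc2, the ribosome-associated cochaperone, starts 118 nt from the proteasome gene Psmc2, at 70.9 and 87.4 FPKM (a log2 ratio of 0.30, against -0.04 for Dnajc2). Hspa14 starts 251 nt from Cdnf, a neurotrophic factor gene with listed levels of 1.96 and 0 FPKM. Dnajb11 starts 276 nt from Tbccd1, at 11.3 and 15.0 FPKM (0.38, against 0.06). The first RefSeq exons of Dnajc17 and Zfyve19 overlap over 76 nt, and both had ratios above 0 (0.39 and 0.69).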
